A study of Mus musculus with 14 samples.

Results

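10 genes were followed: the Toll-like receptors Tlr1, Tlr2, Tlr4, Tlr6, Tlr7, Tlr8, Tlr9 and Tlr13, the co-receptor Cd14 and the adaptor Myd88. They were chosen by gene symbol, and all 10 were found among the 13406 genes of the doxycycline table and among the 14563 genes of the table of transduced libraries. The RNA came from primary acute myeloid leukaemia cells of C57/BL6 mice, and every group carried the same 2 retroviral vectors: one with MLL-AF9 and dsRED under Tet-Off control, in which doxycycline shuts the fusion oncogene down, and one with NRASG12D and the Tet-Off activator. The vectors had been put into foetal liver cells that repopulated irradiated mice, and the leukaemias were collected from the spleen. Untreated cells (n = 4) and cells given doxycycline in culture for 4 days (n = 4) made up the first comparison. Cells sorted for GFP 2 days after transduction with a control-GFP vector (n = 3) or an Id2-GFP vector (n = 3) made up the other; Id2 is an inhibitor of the E-protein transcription factors, and these cells had no doxycycline in their labels. There was no group with doxycycline but without the Tet-Off switch, so an effect of the drug cannot be told apart from that of losing MLL-AF9. Whether replicates were taken from different mice is not labelled, and the p-values therefore speak only of the spread among these libraries, part of which may be technical.

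Toll-like receptors are innate immune sensors. Tlr1, Tlr2, Tlr4 and Tlr6 sit at the cell surface and bind microbial lipids and lipoproteins, Tlr2 doing so as a heterodimer with Tlr1 or Tlr6. Tlr7, Tlr8, Tlr9 and Tlr13 work inside endosomes, where they bind nucleic acids: single-stranded RNA for Tlr7 and for the human form of Tlr8 (the ligands of mouse Tlr8 are less settled), unmethylated CpG DNA for Tlr9 and bacterial ribosomal RNA for Tlr13. Cd14 hands lipopolysaccharide to Tlr4, and Myd88 is the cytoplasmic adaptor that links all 8 of these receptors to Irak kinases and NF-kB. Monocytes and macrophages express most of them.

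Depth was 17922644 to 25959766 reads per library for the first comparison and 14051150 to 14948487 for the other. Levels are given as CPM (reads set to a common total with the authors' scaling of library size), and changes as log2 fold changes ± SE from limma with p-values adjusted over all genes of the table; a gene was called at an adjusted p under 0.05. The label check came out as follows: Mllt3, which encodes AF9, had 489 ± 255 CPM (SD, n = 4) untreated and 5.88 ± 0.67 after doxycycline, and Id2 had 25.8, 31.2 and 51.5 CPM in the control-GFP libraries against 1266, 952 and 1631 with Id2-GFP. Control-GFP replicate 3 stood apart: it differed from the other libraries of its group by a root mean square of 0.98 log2 units over all genes, against 0.48 to 0.71 for the other 5 transduced libraries.

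All 10 genes rose after doxycycline. The background was high: 31.3% of all genes were called higher and 33.8% lower. Of the 10, 9 were called and at least 2-fold higher, against 10.1% of all genes, Myd88 being the exception. This holds for the deposited scaling. Scaled by library totals, the log2 changes of Tlr6 (0.94) and Tlr9 (0.97) were also under 2-fold. In all 10 the untreated and doxycycline groups did not overlap, against 28.9% of all genes, and all 10 were higher in each of the 4 pairs of libraries that share a label. The median change was 1.73 over the 10 genes and −0.03 over all genes. By role, the median was 1.5 for the surface receptors and 2.51 for the endosomal receptors. The roles overlapped, since endosomal Tlr9 (1.21) rose less than surface Tlr1, Tlr2 and Tlr4, and they were not tested against each other. In bulk RNA, a change in the number of cells of a type and a change in RNA per cell cannot be told apart.

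**Figure D1:**
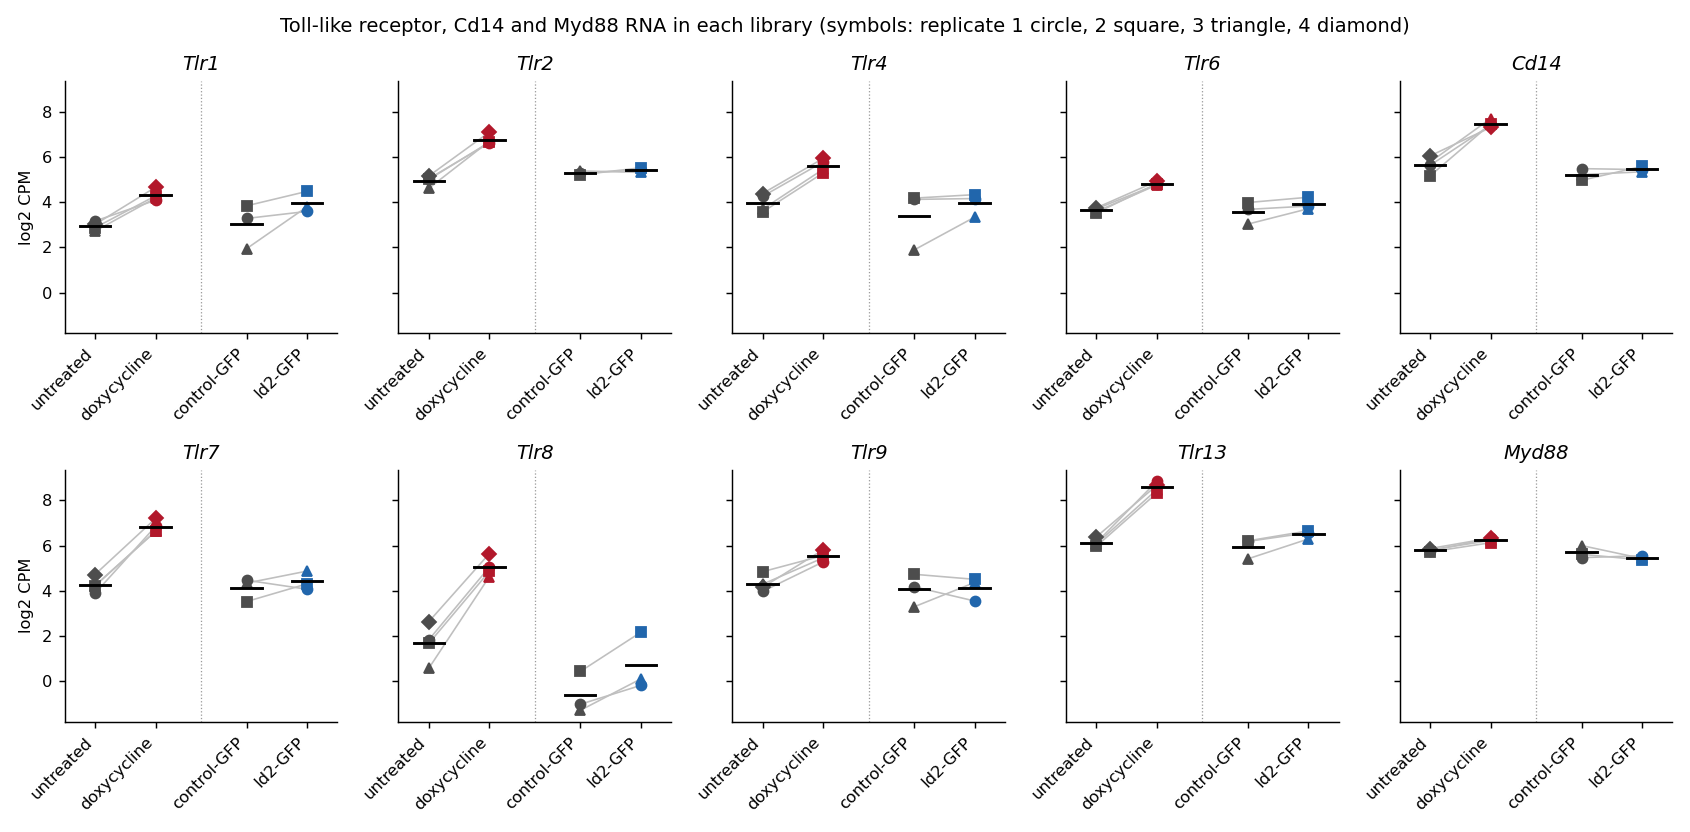
Level of each gene (log2 CPM) in each library; points are libraries, grey lines join libraries of one pair or number, black bars are group means, and the dotted line separates the 2 tables, which were normalized apart. The doxycycline points lie above all untreated points in every panel, whereas the Id2-GFP and control-GFP points overlap in every panel but that of Tlr13.

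Among the surface receptors, Tlr2 (chr3:83836272-83841767 of GRCm38, minus strand) had the largest estimated change. It had 32.7, 32.0, 24.4 and 35.6 CPM in the untreated libraries of pairs 1 to 4 and 98.6, 100.3, 103 and 137 CPM after doxycycline. Its lowest doxycycline value was well above its highest untreated value, and pair 4 was highest in both groups. The change was 1.82 ± 0.14 (adjusted p = 3.0e-06), a 3.52-fold rise. Tlr4, the receptor for lipopolysaccharide (chr4:66827584-66930284, plus strand), had 19.1, 11.8, 12.9 and 20.8 CPM untreated and 54.8, 39.2, 43.8 and 61.1 CPM with doxycycline. Pairs 1 and 4 were the higher ones under both conditions, so the untreated libraries spread widely while the differences within pairs stayed between 1.52 and 1.77. The Tlr4 change was 1.64 ± 0.21 (adjusted p = 8.3e-05), and its SE was 0.06 in a fit that took the pair label into account.

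Tlr1 and Tlr6, the partners of Tlr2, were lower per kilobase of exon and had smaller estimates. Tlr1 ranged from 6.57 to 8.94 CPM untreated and from 17.0 to 25.3 CPM after doxycycline, a change of 1.36 ± 0.14 (adjusted p = 2.2e-05). Tlr6 kept the tightest groups of the receptors, 11.5 to 13.4 CPM against 27.1 to 30.4 CPM, with a change of 1.18 ± 0.07 (adjusted p = 9.7e-07). These genes are neighbours on chromosome 5 of GRCm38 (Tlr1 at chr5:64924679-64933563 and Tlr6 at chr5:64952031-64960097, both on the minus strand) and resemble each other. In the reference transcripts, 15.3% of the 50-base stretches of Tlr1 also occur in Tlr6, and the longest match was 94.9% identical over 1076 bases, so how reads of that stretch were split between them is uncertain.

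The lipopolysaccharide co-receptor Cd14 had 49.4, 35.8, 54.5 and 66.1 CPM untreated and 170, 176, 207 and 158 CPM after doxycycline. Pair 4 was the highest of the untreated libraries and the lowest of the treated ones, so its difference (1.26) was the smallest of the pairs and that of pair 2 (2.30) the largest. The change was 1.82 ± 0.17 (adjusted p = 1.1e-05). The difference between the rises of Cd14 and Tlr4 was within the spread of the libraries: the log2 ratio of Cd14 to Tlr4 was 1.68 ± 0.30 untreated and 1.85 ± 0.42 with doxycycline (SD, n = 4 each; exact two-sided permutation p = 0.514).

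The endosomal receptors held the 3 largest changes. Tlr8 had 3.56, 3.18, 1.49 and 6.21 CPM in the untreated libraries, from 29 to 133 reads each, and 33.1, 29.1, 24.7 and 50.2 CPM after doxycycline. Every treated library was several times above every untreated one. The change was 3.37 ± 0.39 (adjusted p = 4.9e-05), a 10.3-fold rise with a 95% interval from 5.64-fold to 19.0-fold, the widest of the 10. Tlr7 had 14.8, 18.8, 18.6 and 26.4 CPM untreated and 115, 99.3, 99.7 and 147 CPM with doxycycline. Pair 1 was lowest untreated and rose most, by 2.96 against 2.4 to 2.48 in the other pairs, and the overall change was 2.57 ± 0.18 (adjusted p = 2.1e-06). Tlr7 and Tlr8 lie side by side on the minus strand of the X chromosome, at chrX:167304929-167330558 and chrX:167242696-167264329.

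Tlr13, the sensor of bacterial ribosomal RNA, was the most abundant receptor per kilobase of exon (chrX:106143204-106160493, plus strand). It had 69.6, 62.6, 67.3 and 83.6 CPM untreated and 461, 321, 356 and 408 CPM after doxycycline, with a change of 2.44 ± 0.12 (adjusted p = 4.6e-07), which was the smallest p-value of the 10 genes. Tlr9, the sensor of CpG DNA (chr9:106222598-106226883, plus strand), had 15.7, 28.7, 19.6 and 17.8 CPM untreated and 38.8, 47.1, 43.9 and 56.4 CPM with doxycycline. It was the endosomal receptor that moved least, 1.21 ± 0.18 (adjusted p = 2.6e-04). Its differences within pairs ran from 0.71 in pair 2, the pair with the highest untreated value, to 1.66 in pair 4.

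The adaptor Myd88 (chr9:119335934-119341411, minus strand) stood at the other end. It had 54.7, 52.8, 55.9 and 58.5 CPM untreated and 79.6, 69.9, 75.1 and 80.6 CPM after doxycycline. The groups were tight and separate, and the rise was small: 0.46 ± 0.06 (adjusted p = 7.7e-05), a 1.37-fold change. Scaled by library totals instead of the authors' factors, the Myd88 change was 0.22 and the median of all genes −0.27, so that 28.1% of the genes called were higher against 48.1% with the deposited scaling; the 10 genes were all still called. Exons of Myd88 overlap those of Acaa1a on the opposite strand, and no strand is stated for the counting, so reads of the overlap cannot be assigned. Acaa1a, an enzyme of peroxisomal fatty acid oxidation, rose by 0.61 ± 0.05 (adjusted p = 4.0e-06).

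**Figure D2:**
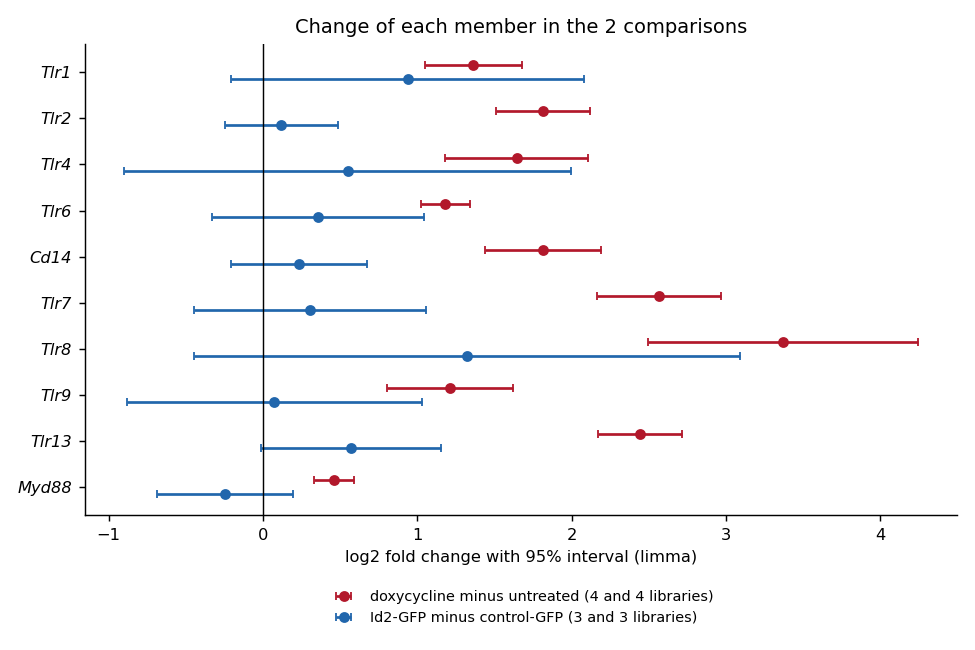
Log2 fold change of each gene with its 95% interval from limma, for doxycycline against untreated (red, 4 and 4 libraries) and Id2-GFP against control-GFP (blue, 3 and 3 libraries). All red intervals lie above 0, from Myd88 at 0.46 to Tlr8 at 3.37, and all blue intervals include 0.

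Library by library, pair 4 had the highest value of its group for 8 of the 10 genes, both untreated and with doxycycline. Its label begins with TRIMA1 and those of the other pairs with TRIMA2, a difference that the labels do not explain. Leaving that pair out gave a median change of 1.72, and all 10 genes remained called.

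3 promoter windows are shown because they belong to the genes at both ends of the range with an entry in the RefSeq promoter table (GRCm38.p6): Tlr8 and Tlr13, which rose most, and Myd88, which rose least. Each covers 250 bases before to 50 bases after the RefSeq start site and is written 5′ to 3′ on the gene's strand, with capitals marking GAGGAA, the core bound by the myeloid transcription factor PU.1, on either strand. The windows are Tlr8 at chrX:167264280-167264579 (minus strand), Tlr13 at chrX:106143025-106143324 (plus strand) and Myd88 at chr9:119339969-119340268 (minus strand, with a start site 1393 bases from that of the GENCODE gene).
Tlr8: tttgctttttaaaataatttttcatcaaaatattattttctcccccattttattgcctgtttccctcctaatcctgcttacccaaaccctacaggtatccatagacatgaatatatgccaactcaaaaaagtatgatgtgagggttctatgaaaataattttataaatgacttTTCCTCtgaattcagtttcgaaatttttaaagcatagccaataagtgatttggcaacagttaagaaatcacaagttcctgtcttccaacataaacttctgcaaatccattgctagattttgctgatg
Tlr13: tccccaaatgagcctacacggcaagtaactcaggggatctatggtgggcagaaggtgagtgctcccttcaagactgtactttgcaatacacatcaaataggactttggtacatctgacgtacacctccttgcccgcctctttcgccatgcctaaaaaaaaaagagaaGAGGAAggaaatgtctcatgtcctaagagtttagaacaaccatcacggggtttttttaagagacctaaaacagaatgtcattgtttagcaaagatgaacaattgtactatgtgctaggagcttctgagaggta
Myd88: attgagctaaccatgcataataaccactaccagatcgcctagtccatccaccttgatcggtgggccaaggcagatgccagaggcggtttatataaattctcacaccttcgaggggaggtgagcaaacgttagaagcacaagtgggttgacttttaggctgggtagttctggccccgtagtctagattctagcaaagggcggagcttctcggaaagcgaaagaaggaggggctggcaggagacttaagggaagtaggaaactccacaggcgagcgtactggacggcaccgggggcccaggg
The core occurs once in the window of Tlr8, as its reverse complement, and once in that of Tlr13, and the letters do not occur in that of Myd88. Windows of 7 of the 10 genes were searched, 9 in all. No window of Tlr4, Tlr7 or Cd14 was searched, so the counts below do not cover these genes. GAGGAA was found on either strand in 4 of the 9 windows, those of Tlr8 and Tlr13, 1 of the 2 of Tlr1, and that of Tlr9, which holds 2 copies, against 28.3% of the 32851 windows of all genes. Searched the same way, TTGCNNAA of C/EBP factors was in 3 of the 9 windows (10.8% of all windows), CAGNTG, the E-box form bound by E proteins, in 5 (51.4%), TGTGGT of RUNX factors in 1 (16.8%) and GGNNTTTCC of NF-kB in 1, that of Myd88 (5.82%). With so few windows these counts are a description only, and a match of letters is not a bound site.

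Per kilobase of exon, which allows levels to be set side by side across genes, Cd14 had the highest mean in both groups. Untreated, its mean was 29.7 ± 7.3 CPM per kb (SD, n = 4), followed by Myd88 at 21.5 ± 0.9, Tlr13 at 16.4 ± 2.1 and Tlr2 at 10.3 ± 1.6. Tlr9, Tlr7, Tlr6, Tlr4 and Tlr1 came next, from 5.88 down to 2.31, and Tlr8 was last at 1.01 ± 0.54. Cd14 and Myd88 overlapped in range, as did Tlr2 with Tlr9, Tlr9 with Tlr7, Tlr6 with Tlr4, and Tlr4 with Tlr1, so these neighbours were not separated in level. After doxycycline the order was Cd14 at 103 ± 12, Tlr13 at 89.8 ± 14.2, Tlr2 at 36.4 ± 6.0, Myd88 at 29.6 ± 1.9 and Tlr7 at 28.3 ± 5.5 CPM per kb. The ranges of Cd14 and Tlr13 overlapped, and in pair 1 Tlr13 (107 CPM per kb) was above Cd14 (98.0). Tlr13 and Tlr2 were then above Myd88, whose range then overlapped that of Tlr7. The lower 5 genes, from Tlr9 at 13.4 ± 2.1 to Tlr1 at 5.97 ± 1.1, formed a chain in which each range overlapped the next, with Tlr8 now among them at 9.56 ± 3.11.

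**Figure D3:**
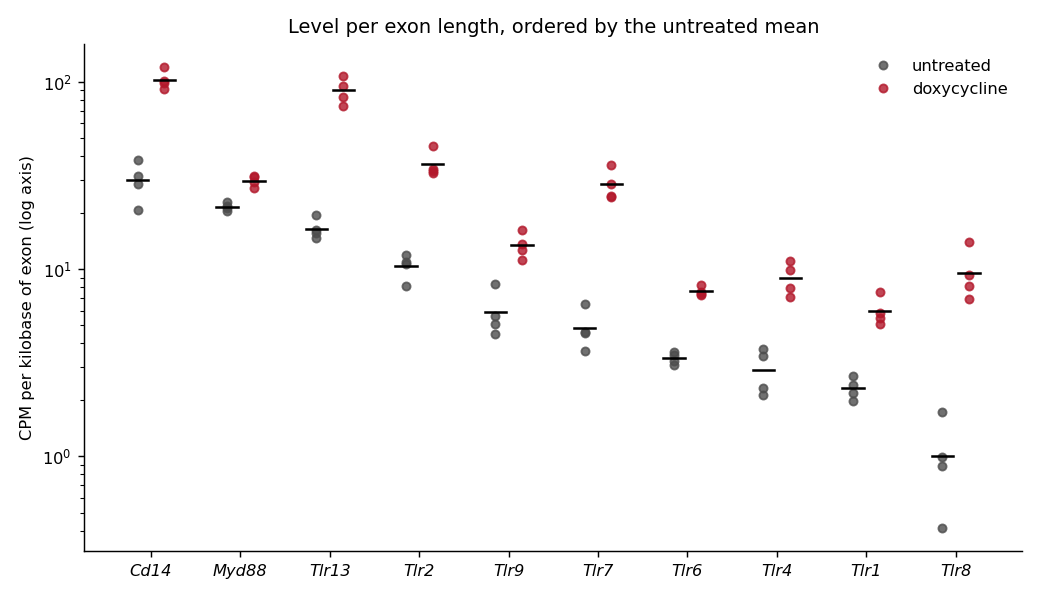
Level per kilobase of exon (CPM per kb, log axis) in the untreated (grey) and doxycycline (red) libraries, ordered by the untreated mean; points are libraries and bars are means. Tlr8 moves from last place, 1.01 CPM per kb, to 9.56, and Tlr13 from 16.4 to 89.8.

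Ratios between partner receptors within a library were compared because they do not depend on how libraries were scaled. The log2 ratio of Tlr2 to Tlr1 was 2.01 ± 0.15 untreated and 2.46 ± 0.08 after doxycycline (SD, n = 4 each), that of Tlr2 to Tlr6 was 1.31 ± 0.20 and 1.95 ± 0.16, and that of Tlr7 to Tlr8 was 2.59 ± 0.74 and 1.78 ± 0.19. In these 3 ratios the groups did not overlap, and each had an exact two-sided permutation p of 0.0286, the smallest that 4 against 4 libraries can give. Adjusted over the 10 ratio tests of both comparisons, their p was 0.0952. With these group sizes no ratio could pass an adjusted 0.05 over 10 tests, so the adjusted values say nothing for or against a difference. The ratio of Tlr1 to Tlr6 differed by 0.18 between the groups (exact permutation p = 0.171, adjusted 0.4).

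The rest of the pathway was read from 7 lists, chosen with earlier results of these data known. Of 68 listed genes, 61 were in the doxycycline table, with a median change of 0.40. Of these, 39 were called higher and 1 lower, against 31.3% and 33.8% of all genes. The 39 include Il1a, Il1b, Cxcl2 and Nos2, which were so low untreated that they may be in the table only through the doxycycline libraries. The only other receptor in the table was Tlr5, the flagellin receptor, with 3.04 ± 0.91 CPM untreated and 15.4 ± 1.4 with doxycycline (change 2.39 ± 0.22, adjusted p = 1.2e-05). Of 5 co-receptor and ligand-binding genes 2 rose, a count too small to set against the background of 31.3%. They were Ly96, the partner of Tlr4 also called MD-2, by 1.56 ± 0.14, though only to 6.46 ± 0.78 CPM, and Cd180, a receptor homologue of B cells and myeloid cells, by 0.67 ± 0.08. Lbp, the lipopolysaccharide-binding protein, and the scavenger receptor Cd36 did not pass (0.28 ± 0.12 and −0.70 ± 0.36), but did with the pair label as a block (limma adjusted p = 0.0186 and 0.0392). Of 4 other adaptors 3 rose, again a count too small to set against 31.3%. Pik3ap1, which couples the receptors to PI3-kinase, rose by 0.79 ± 0.08. Tirap, which bridges Tlr2 and Tlr4 to Myd88, rose by 0.37 ± 0.06, and Ticam1, the adaptor of the Myd88-independent branch, by 0.33 ± 0.07.

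Of 10 genes of receptor folding, trafficking and processing, 7 rose and 1 fell, against 31.3% and 33.8% of all genes. Lgmn, a lysosomal endopeptidase that cleaves endosomal receptors, rose by 3.67 ± 0.23, Slc15a3, an endosomal peptide transporter, by 3.01 ± 0.13, Pld3, a lysosomal exonuclease, by 1.58 ± 0.09, and Unc93b1, the chaperone that carries nucleic acid receptors to endosomes, by 1.18 ± 0.08. The one that fell was Cnpy4 (−0.36 ± 0.05), named after its values were seen. Of 17 kinases and ubiquitin ligases 6 rose, a share near the 31.3% of all genes called higher, and the list median was 0.07. Irak2, a kinase of the complex that Myd88 assembles, rose by 1.47 ± 0.07. Ikbke and Tbk1, kinases of the interferon branch, rose by 1.57 ± 0.10 and 0.40 ± 0.05, and Ikbkg, the regulatory subunit of the IkB kinase complex, by 0.26 ± 0.06. The core steps next to Myd88 did not pass: Irak4 differed by 0.01 ± 0.05, Irak1 by 0.08 ± 0.04 and Traf6 by −0.02 ± 0.04 (named after their values were seen).

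Of 12 inhibitors of the pathway 9 rose, against 31.3% of all genes called higher. With the pair label as a block Sigirr was also called, lower (limma adjusted p = 0.0197, named after its values were seen). Lilrb4, an inhibitory receptor of myeloid cells, went from 237 ± 40 to 2300 ± 253 CPM (SD, n = 4 each), a change of 3.29 ± 0.12, and Cd300lf, another inhibitory receptor, rose by 2.72 ± 0.17. Tnfaip3 (A20) and its partner Tnip1 rose by 1.07 ± 0.12 and 0.51 ± 0.05. Of 15 response genes, which NF-kB activates in stimulated cells, 12 were in the table, with a median of 1.69. Of these 11 rose, against the same 31.3%. Il1a, Il1b, Cxcl2 and Nos2 had untreated means of 0.32, 0.85, 0.75 and 0.39 CPM, while every gene in the table had over 1 CPM in at least 2 libraries. They may have entered the table only through the doxycycline libraries, so their rises cannot be set against that share. Il6, Il12b and Cxcl1 were not in the table. The chemokine Cxcl2 rose by 4.26 ± 0.26 from 0.75 ± 0.22 CPM, Ccl4 by 2.06 ± 0.21, the cytokine Tnf by 2.05 ± 0.12 and Nfkbia, the NF-kB inhibitor, by 0.79 ± 0.07. The labels name no ligand of these receptors as a treatment.

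**Figure D4:**
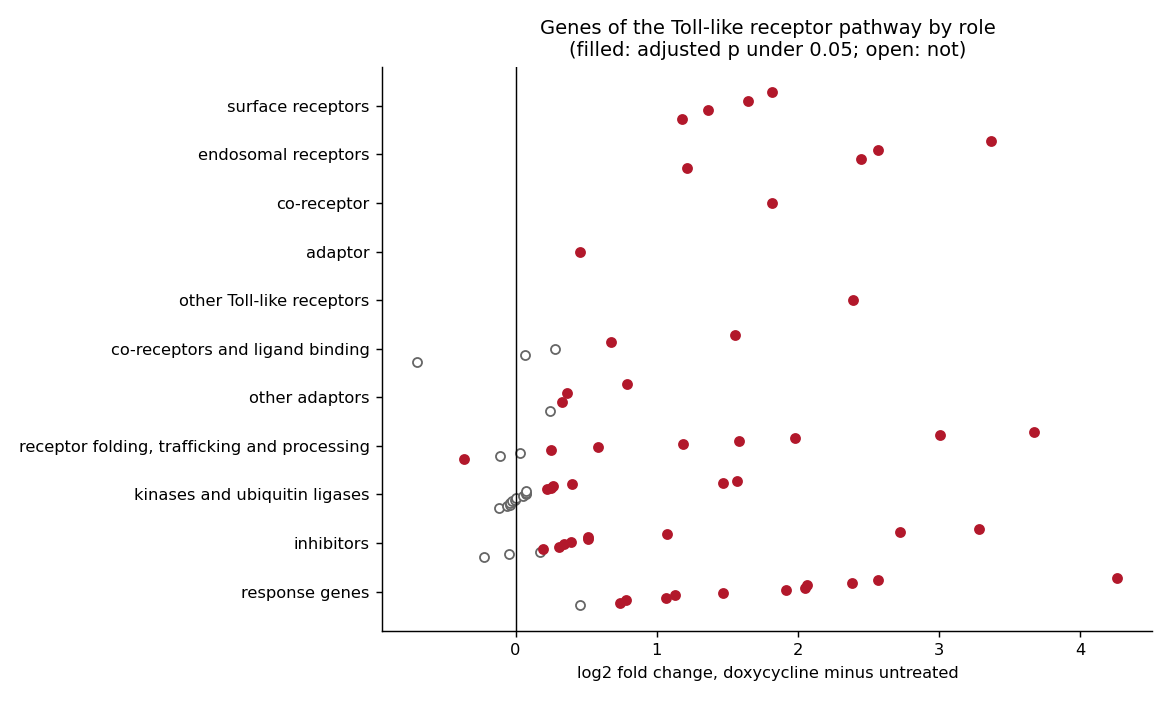
Log2 fold change, doxycycline minus untreated, of each gene of the pathway lists by role (filled, adjusted p under 0.05; open, above). The receptors, Cd14 and the response genes lie to the right, while 11 of the 17 kinases and ubiquitin ligases are open points near 0.

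Marker genes of mature myeloid cells moved with the receptors. For the counts below, 31.3% of all genes were called higher and 33.8% lower. All 6 macrophage markers rose, and their summed level went from 2636 to 5453 CPM in the untreated libraries to 23849 to 35341 CPM with doxycycline. The sum was mostly Lyz2 (mean 2987 CPM untreated and 26854 with doxycycline), so it says little about the other markers. All 6 neutrophil markers rose too, from a sum of 502 to 1892 CPM to 4160 to 9632 CPM, S100a9 being the highest. One of them, Ly6g, had only 0.35 ± 0.29 CPM untreated and 7.45 ± 1.64 with doxycycline (SD, n = 4 each). It may be in the table only through the doxycycline libraries, so its rise cannot be set against the share of all genes. Of 6 progenitor markers 5 fell, and their sum went from 2321 to 2900 CPM down to 600 to 1177 CPM, with Ctsg the most abundant; with the pair label as a block the remaining one, Mpo (named after its values were seen), was also called lower (limma adjusted p = 3.7e-04). The part of these shifts in the rise of the receptors was not tested. Most defining markers of other cells that express Tlr7 or Tlr9 were not in the table: of 6 B cell markers only Cd79b was in the table, at a sum of 9.69 to 22.8 CPM untreated and 7.12 to 21.5 CPM treated, and Cd79a, Ms4a1 and Pax5 were not. The Cd79b change was −0.35, called only with the pair label as a block (limma adjusted p = 0.421, or 0.00529 with the block). Of 5 plasmacytoid dendritic cell markers 2 were in the table, with Siglech the higher, and their sum stayed under 4 CPM in all 8 libraries. Of 7 T and NK cell markers only Lck was present, at a sum of at most 1.06 CPM, and no erythroid marker was in the table. Of 5 stromal and endothelial markers only Pecam1 was present, and it fell from 251 ± 2 CPM to 75.8 ± 10.8 (SD, n = 4 each). Col1a1, Col3a1, Cdh5 and Kdr were not in the table, so Pecam1 alone cannot be read as a sign of stroma or endothelium.

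With Id2-GFP, none of the 10 genes was called, and none had an unadjusted p under 0.05 in the fit that left the replicate number out. The test called 2 of 14563 genes (0.0137%), Id2 itself and Gm6175 (named after its values were seen), and 357 had an unadjusted p under 0.05. The point estimate was above 0 for 9 of the 10 genes, with a median of 0.33 against −0.03 for all genes, and the adjusted p was 0.998 for each. Tlr1, Tlr4, Tlr6, Tlr8 and Tlr13 (5 of the 10) were higher with Id2 in every same-numbered pair. The share of all genes with this trait was not worked out. Without control-GFP replicate 3 the median was 0.20, and the estimates of Tlr4 and Tlr9 were also below 0; without both libraries of number 1 the median was 0.56. With the replicate number as a block, since same-numbered libraries varied together, 35 genes were called, 16 higher and 19 lower, and none of the 10 (adjusted p from 0.436 to 0.971). The block narrowed the SE of Tlr8 from 0.76 to 0.40, of Tlr1 from 0.49 to 0.30 and of Tlr13 from 0.25 to 0.19. It also narrowed those of Tlr4, Tlr6, Tlr7 and Tlr9, and widened those of Tlr2, Cd14 and Myd88.

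Tlr13 had 72.8, 73.9 and 42.6 CPM in control-GFP replicates 1 to 3 and 94.96, 101 and 78.5 CPM with Id2-GFP. It was the only one of the 10 whose groups did not overlap, against 3.18% of all genes higher without overlap. The change was 0.57 ± 0.25, with a 95% interval from −0.01 to 1.15 and an unadjusted limma p of 0.0535. Without control-GFP replicate 3, the low value, it was 0.31.

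The size of other estimates above 0 also depended on single libraries. Tlr4 had 17.4, 18.1 and 3.68 CPM with control-GFP and 17.8, 20.1 and 10.1 CPM with Id2-GFP. Replicate 3 was low in both groups, and without the control-GFP library of that number the estimate went from 0.55 ± 0.62 to −0.21. Tlr1 had 9.70, 14.3 and 3.83 CPM against 12.04, 22.3 and 13.9 CPM, an estimate of 0.94 ± 0.49 that was 0.40 without control-GFP replicate 3. Within same-numbered pairs Tlr1 was higher with Id2 by 0.31, 0.64 and 1.86. Tlr8 had few reads, with 0.49, 1.35 and 0.41 CPM (5 to 19 reads) against 0.88, 4.49 and 1.08 CPM (13 to 64 reads). Its estimate of 1.32 ± 0.76 had an interval from −0.45 to 3.09, and Id2-GFP replicate 2 held most of the Id2-GFP reads. Without that library the estimate was 0.59, and without control-GFP replicate 2 it was 1.85. Without both libraries of number 2 it was 1.12, and the Tlr8 differences within same-numbered pairs were 0.84, 1.74 and 1.39. Tlr9 showed no common direction, with 18.1, 26.6 and 9.78 CPM against 11.7, 22.8 and 20.6 CPM, lower with Id2 in replicates 1 and 2 and higher in replicate 3 (0.07 ± 0.41; −0.31 without control-GFP replicate 3).

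Tlr2 stayed between 36.9 and 45.9 CPM in all 6 libraries (interval −0.25 to 0.49). Cd14 ranged from 31.2 to 44.7 CPM with control-GFP and from 40.5 to 47.9 CPM with Id2-GFP (interval −0.21 to 0.68). Tlr6 ran from 8.15 to 15.8 CPM and from 13.1 to 18.6 CPM (interval −0.33 to 1.04; estimate 0.36, or 0.088 without control-GFP replicate 3), and Tlr7 from 11.5 to 22.1 CPM and from 16.8 to 29.3 CPM (interval −0.44 to 1.06). Myd88 was the only gene with an estimate below 0, at 44.3, 49.1 and 64.1 CPM with control-GFP and 46.9, 41.3 and 43.1 CPM with Id2-GFP (−0.25 ± 0.19), and without control-GFP replicate 3, its highest library, the estimate was −0.09.

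Across these 6 libraries, control-GFP replicate 3 was the lowest of its group for 6 of the 10 genes and Id2-GFP replicate 2 the highest of its group for 8. The 5 partner ratios had exact two-sided permutation p-values from 0.2 to 0.8 between Id2-GFP and control-GFP, where 3 against 3 libraries cannot go below 0.1 and so cannot pass. None of the 56 pathway genes in this table was called, 1 had an unadjusted limma p under 0.05 (Lgmn, change 0.98), and the median change was 0.02. Summed macrophage markers, again mostly Lyz2, ran from 1122 to 2007 CPM with control-GFP and from 920 to 1628 CPM with Id2-GFP, without a called member. The level order per kilobase resembled that of the untreated cells, with Cd14 first and Tlr8 last in both transduced groups, though the tables were normalized apart and their levels were not tested against each other.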

How the data were processed

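RNA was sequenced in 14 libraries, prepared with the Illumina TruSeq V2 kit per the labels' protocols. The build was mm10, and limma, HTSeq, TopHat2 and CASAVA 1.8.2 were used in roles not given, per the submitters' processing notes. The authors deposited 2 tables of log2 CPM values, normalized apart. Adding back an offset of 0.5 reads, 100% of the values came out as whole reads within 0.01, so the log2 CPM are of reads plus 0.5 over a scaled library size, and a fold change understates the change of low genes. Every gene had over 1 unscaled CPM in at least 2 libraries of its table, so low genes were already absent. Of entries that repeat an identifier, only the first was kept (13419 entries to 13406 genes).

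The log2 values as deposited were tested with limma 3.58.1 in R 4.3.3 (eBayes with a trend, two-sided, Benjamini-Hochberg over the whole table, no block). Titles give doxycycline and untreated libraries a shared pair label, and transduced libraries a shared number. The doxycycline titles of pairs 1, 2 and 4, but no untreated title, also end in -R, which the labels do not explain. In those pairs, what it marks cannot be told apart from the treatment. Same-label libraries deviated together from their group means, with correlations of 0.45 to 0.55 between doxycycline and untreated partners and 0.47 to 0.58 between transduced partners, each library correlating best with its own partner. The pairing was therefore used as a replicate block in an alternative fit. SEs, intervals and limma p-values given without naming the block leave the pairing out. After doxycycline the block gave each of the 10 genes a smaller SE, such as 0.16 against 0.39 for Tlr8. Ratios were tested with exact two-sided permutation tests (scipy 1.17.1) and transcripts compared with blastn 2.17.0. The other alternatives were scaling by library totals, median-of-ratios or quantiles, no variance trend, array weights, voom on the recovered reads, an offset of 2 reads, a minimum mean of log2 CPM 1, and leaving out libraries.

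The 10 genes and all lists were chosen with earlier results of these data known. Named genes are the 10, up to 4 genes of each pathway list with the smallest p after doxycycline, those called with Id2, and the most abundant gene of each cell type list. Coordinates and exon lengths are from GENCODE M21 (GRCm38), promoters from RefSeq.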

Additional observations from a re-analysis of the deposited data

Results flagged for a closer look

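Tlr2 after doxycycline had 1 library apart from the other 3 of its group: pair 4 stood at 7.10 log2 CPM against 6.62, 6.65 and 6.69 in pairs 1 to 3. Of 20 groups tested (10 genes in the untreated and doxycycline groups), this was the only one with such a gap by Dixon's criterion, and chance alone gives about 1 in 20. The groups of 3 transduced libraries are too small for this criterion.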

How the results depend on the processing

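After doxycycline, all 10 genes were called higher under each of the 21 alternatives, with changes from 0.22 (Myd88, library totals) to 3.69 (Tlr8). With Id2, none of the 10 was called under any of the 18 alternatives. The number of all genes called with Id2 was 2, 35 with the replicate block, 3 with array weights and 1 with only genes of mean log2 CPM above 1. When libraries were left out it was 0 to 3 (0 without Id2-GFP replicate 1, and without both libraries of number 1 or of number 2). After doxycycline the replicate block moved the number of all genes called from 8733 to 9326 and that of pathway genes called from 40 to 43 (Lbp, Cd36 and Sigirr were added); it also called Mpo and Cd79b among the cell type markers, and it changed the call of none of the 10 genes in either comparison. The Tlr9 estimate with Id2 turned to −0.34 with array weights and ran from −0.31 to 0.41 when 1 library was left out (−0.43 without both libraries of number 3), being −0.31 without control-GFP replicate 3, −0.11 and −0.04 without Id2-GFP replicates 2 and 3. When each library was left out in turn, the Tlr4 estimate ran from −0.21 to 0.94, the difference in the log2 ratio of Tlr2 to Tlr6 from −0.49 to 0.074 and that of Cd14 to Tlr4 from −0.83 to 0.44; each turned sign only without control-GFP replicate 3. The cause of these shifts was not tested. The ratio tests cannot pass after adjustment, with all libraries or with fewer. For Tlr8, 5 to 64 reads per transduced library limit the precision.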
